A study of Drosophila melanogaster with 12 samples.

Results

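Hr51 and Eip75B, a pair of nuclear receptor genes of Drosophila melanogaster, were followed through the first day of metamorphosis in sorted γ neurons of the mushroom body. The 2 genes were taken by symbol from the 17050 genes of the deposited table, and both were among the 6969 genes that passed the filter on low values. Transcript levels were measured in 12 libraries, 3 for each of the times 6, 12, 18 and 24 h after puparium formation, with the replicates lettered A to C. Per the labels, all 12 libraries shared one genotype: y,w/+ on the first chromosome, UAS-RedStinger/+ on the second and 71G10/UAS-HR51 RNAi on the third. By its label every sample thus carried an RNA interference construct against Hr51 with the driver line 71G10, and RedStinger, a nuclear red fluorescent protein, marked the cells. Each library came from 1000 DsRed-positive cells sorted from dissociated pupal brains of both sexes, labelled as γ neurons. The design text states the purpose as profiling γ neurons in which Hr51 was perturbed. No control genotype was analysed here, so neither a knockdown nor an effect of it on Eip75B could be measured, and the times were the only groups compared. The labels do not give which part of the Hr51 transcript the construct targets, so what a 3′-end read of Hr51 says of intact transcript is not known.

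Nuclear receptors are transcription factors that bind DNA through zinc fingers and, in many cases, a small molecule through a ligand-binding domain. Hr51, also called unfulfilled or UNF, is needed for γ neurons to regrow their axons after the larval branches have been pruned, a process in which the TOR growth pathway also acts. Eip75B encodes E75, a receptor induced by the steroid hormone ecdysone, which carries heme and can bind nitric oxide. E75 forms a complex with UNF, and nitric oxide bound to the heme weakens that contact. Pruning of γ axons itself depends on the ecdysone receptor EcR in these cells.

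Values are reads per 10000000 mapped reads, as scaled by the authors, and the libraries held 1597241 to 3752666 mapped reads. All 14 γ and Kenyon cell markers and all 7 pan-neuronal markers had a median of at least 50 over the libraries, and the γ and Kenyon cell list took 1.02% to 1.29% of the reads in each library. Lists of markers of other cells took smaller shares, with 1 or 2 genes above that median in most. Photoreceptor genes took 0.0170% to 0.0640% of reads, with norpA at 1697 to 6395 and trpl and inaC at 0 in every library. Glial genes took 0.0138% to 0.0483%, most of them from nrv2, with a median of 1.33 for repo. Of the 6 hemocyte genes, crq had a median of 266 and Pxn one of 67.9, while Hml, NimC1 and He were at 0 in every library. Muscle and fat body lists had no gene with such a median, although Tm2 reached 302 in 1 library and Mhc was at 0 in all, and VGAT, with a median of 663, was the 1 such gene among markers of other transmitter types. Their part in the results was not tested. The libraries did not sort cleanly by time. Over the genes tested, 4 of the 12 libraries correlated best with the other libraries of their own time. Replicate A of 6 h correlated at r = 0.72 with the other 6 h libraries and at r = 0.84 with those of 24 h, and replicate A of 12 h at r = 0.81 with its own time and at r = 0.82 with 6 h. Replicates B and C of 6 h, replicate B of 12 h and all those of 18 h also had a higher r with another time. Thus these r alone do not set replicate A of 12 h apart. For replicates B and C of 6 h, these r took in replicate A of 6 h and of 12 h. Within 12 h, replicate A differed more from B and C than these did from each other, by the chi-square given with the processing. In ecdysone response genes such as Hr4, Hr46 and EcR, given below, the library labelled 6 h replicate A lay on the side of the later libraries. The library labelled 12 h replicate A lay there on the side of replicates B and C of 6 h. Not every listed gene did so. For the ecdysone response gene br, replicate A of 6 h had 194, where replicates B and C of 12 h had 1901 and 2250. For the heme oxygenase gene Ho, replicate A of 12 h had 829, where B and C of 12 h had 857 and 826. Replicate A of 6 h correlated with the 12 h libraries at r = 0.79, below its r with 24 h. That r takes in replicate A of 12 h, so it cannot show which time replicate A of 6 h was nearest. Whether these 2 libraries carry each other's label was not tested, and every 6 h and 12 h value and mean below stands as labelled. Results below are therefore given for all 12 libraries and for the 10 without replicate A of 6 h and of 12 h. These were left out for their values, so results without them are a description.

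In the dm6 coordinates of the deposited table, counted from 1, Hr51 occupies positions 15331325 to 15339384 of chromosome 2R on the plus strand. It has 1 annotated transcript and no overlapping gene. The next gene on the same strand, unc-5, which encodes a netrin receptor, starts 1087 bases downstream and had values of 163 to 709. Eip75B spans 113744 bases of chromosome 3L, from 17950953 to 18064696 on the minus strand. Its 7 annotated transcripts begin at 7 starts and share 3 ends, and the isoforms they encode differ in their amino-terminal and DNA-binding parts. The table holds 1 value for the whole gene, so isoforms could not be told apart. The 5 genes that overlap Eip75B, 3 of them on its strand, summed to at most 0.439% of its value in any library.

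Hr51 transcripts were read in every library, from 538 to 1893 reads, or 0.0266% to 0.0567% of mapped reads. At 6 h the values were 4144, 5044 and 5666 in replicates A, B and C, with a mean of 4951 ± 765 (SD, n = 3). At 12 h they were 5045, 3741 and 3794, and at 18 h 5373, 4325 and 2661. At 24 h they were 3256, 2813 and 3646. The 24 h libraries were the most alike, all below every library of 6 h and of 12 h, and the 18 h libraries were the least alike, reaching across the range of the other times. The order of the means was 6 h, 12 h, 18 h and 24 h (4951, 4194 ± 738, 4120 ± 1368 and 3238 ± 417), and at each step in that order the libraries of neighbouring times overlapped.

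Eip75B transcripts took 0.354% to 0.625% of mapped reads, from 5922 to 18481 reads per library. At 6 h the values were 35446, 49248 and 37076 in replicates A, B and C. At 12 h they were 47094, 60742 and 62458, at 18 h 57184, 46869 and 50902, and at 24 h 53143, 43318 and 40542. The lowest libraries were 2 of those made at 6 h and the highest 2 of those made at 12 h. Every pair of times overlapped in at least 1 library. In order of level, the means were 56765 ± 8419 for 12 h, 51652 ± 5198 for 18 h, 45668 ± 6621 for 24 h and 40590 ± 7542 for 6 h (SD, n = 3 each), with neighbours in that order closer than the larger of their SDs. In bulk samples of sorted cells, fewer cells of a type and less RNA per cell cannot be told apart.

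**Figure D1:**
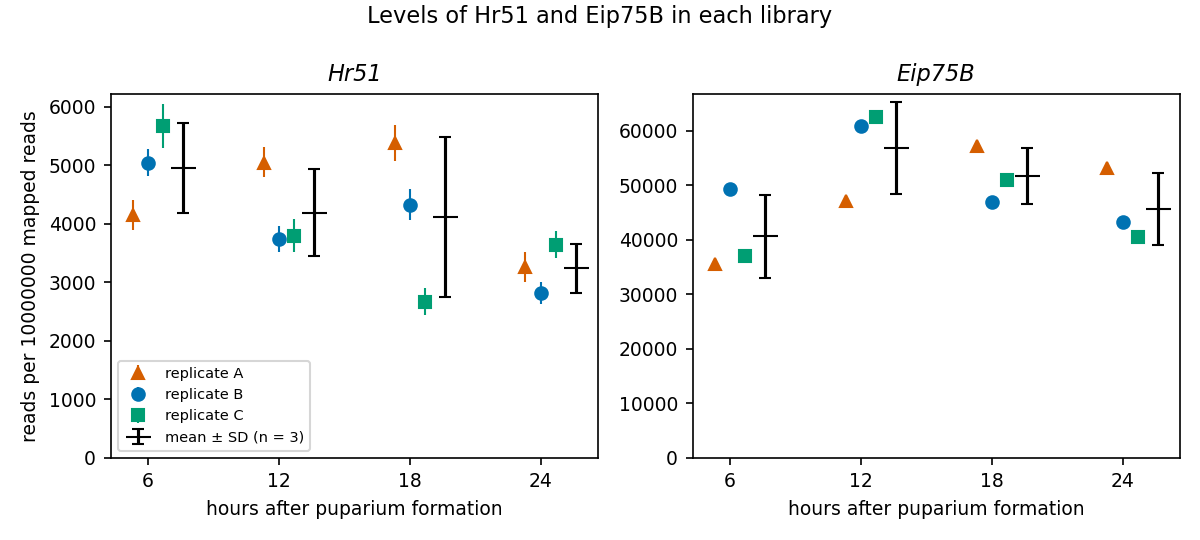
Values of Hr51 (left) and Eip75B (right), in reads per 10000000 mapped reads, by hours after puparium formation. Coloured points are single libraries with their 95% counting intervals (hidden by the point for Eip75B), and black marks are the mean ± SD of 3 libraries. The 3 libraries of 24 h lie below all those of 6 h and 12 h for Hr51, while the times overlap for Eip75B.

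Differences between times were tested with limma on log2(value + 1), with Benjamini-Hochberg adjustment over all 6969 genes and a call at an adjusted p under 0.05. Neither gene was called in any of the 6 comparisons of times, nor in the test for any change over the 4 times, in which Hr51 had an adjusted p of 0.654 and Eip75B one of 0.657. The background was the same: 0% of the genes tested were called in each of these 7 comparisons by limma. For 24 h against 6 h, edgeR on the recovered reads called 0 genes and DESeq2 171, while 943 genes had an unadjusted limma p under 0.05; neither Hr51 nor Eip75B was called by either tool.

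The largest difference for Hr51 was at 24 h against 6 h, a log2 change of −0.61 ± 0.26 (SE), or 0.656-fold with a 95% interval of 0.446 to 0.964 (limma, unadjusted p = 0.0336, adjusted p = 0.331). The libraries of 24 h lay below those of 6 h without overlap, as they did for 7.52% of all genes tested, and below those of 12 h, as for 10.4%. Against 12 h the 24 h level of Hr51 differed by −0.37 ± 0.26 on the log2 scale (limma adjusted p = 0.741), and against 18 h by −0.30 ± 0.26 (limma adjusted p = 0.845). That last value became −0.075 when replicate A of 18 h was left out and −0.58 when replicate C of 18 h was. At 12 h against 6 h the log2 change of Hr51 was −0.24 ± 0.26 (limma adjusted p = 0.995). The change at 18 h against 12 h was −0.071 ± 0.26 and turned positive, to 0.22, without replicate C of 18 h, the library with the lowest Hr51 value.

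The largest difference for Eip75B was at 12 h against 6 h, a log2 change of 0.49 ± 0.22 (SE), or 1.40-fold with a 95% interval of 1.01 to 1.95 (limma, unadjusted p = 0.0445, adjusted p = 0.985). At 24 h against 12 h it was −0.31 ± 0.22 (limma adjusted p = 0.742). At 24 h against 6 h, where Hr51 differed most, Eip75B differed by 0.18 ± 0.22, with a 95% interval of 0.813-fold to 1.57-fold. Leaving out replicate A of 24 h gave 0.062, and leaving out replicate B of 6 h gave 0.32. Changes in either direction within that interval could not be told from none.

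Leaving out replicate A of 6 h and 12 h removed the overlap between those times for both genes, with Hr51 lower and Eip75B higher at 12 h. Hr51 then had 3741 and 3794 at 12 h, against 5044 and 5666 at 6 h, and the log2 change of −0.50 ± 0.28, against −0.24 in the 12 libraries, was not called (limma adjusted p = 0.39). No overlap in that direction was seen for 18.1% of genes. The log2 change of Hr51 at 24 h against 6 h became −0.73 ± 0.25 (limma, unadjusted p = 0.00968, adjusted p = 0.0722), in a comparison in which 11.5% of all genes were called and in which 18.8% of genes lay lower without overlap. At 18 h against 12 h the change of Hr51 turned to 0.070 ± 0.25, in a comparison in which 0% of genes were called.

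Eip75B had 60742 and 62458 at 12 h in these 10 libraries, against 49248 and 37076 at 6 h, a log2 change of 0.53 ± 0.20 (limma, unadjusted p = 0.0149, adjusted p = 0.15). Of all genes, 5.15% were called in that comparison and 27.7% were higher without overlap. Both 12 h libraries also lay above all 3 of 18 h, as 11.1% of genes did, and above all 3 of 24 h, as 17.1% did. The log2 change of Eip75B at 24 h against 12 h was −0.44 ± 0.18, not called (limma adjusted p = 0.449). Both members' share of calls in the 10 libraries was thus 0 of 2 in every comparison, beside 9.99% of genes at 18 h against 6 h, 0.143% at 24 h against 18 h, 0.0143% at 24 h against 12 h and 9.31% for any change.

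**Figure D2:**
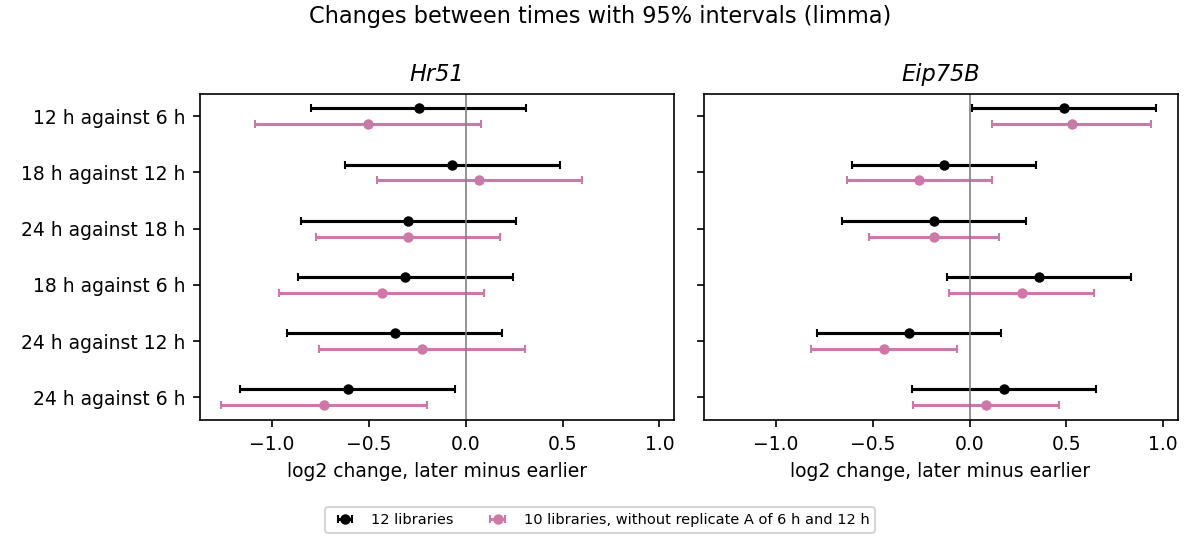
Log2 changes of Hr51 (left) and Eip75B (right) for the 6 comparisons of times, later minus earlier, with their 95% limma intervals before adjustment. Black is the fit on 12 libraries and pink that on 10 libraries, without replicate A of 6 h and 12 h. The interval of Hr51 lies below 0 at 24 h against 6 h and that of Eip75B above 0 at 12 h against 6 h in both fits, and neither is called after adjustment.

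The spread between libraries of one time was set beside that of other genes of like level. The 95% counting interval of a library was ± 4.53% to 8.55% for Hr51 and ± 1.44% to 2.56% for Eip75B, covering counting error only. The SD within times was 0.32 on the log2 scale for Hr51, beside a median of 0.32 over the 695 genes with a mean within 2-fold of its own. For Eip75B it was 0.21, beside a median of 0.29 over 33 such genes, and 33.3% of those had a smaller one. The highest library of Hr51 was 2.13 times its lowest, and that of Eip75B 1.76 times. An exact permutation test of the F statistic over all 369600 assignments of the 12 libraries to times gave p = 0.226 for Hr51 and p = 0.103 for Eip75B (n = 3 per time, adjusted over 3 measures p = 0.226 for Hr51 and p = 0.204 for Eip75B). In the 10 libraries the exact permutation p was 0.219 for Hr51 and 0.112 for Eip75B.

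The relation of the partners was followed as the ratio of the Eip75B value to the Hr51 value within a library, from which depth cancels. Its size is a ratio of reads, not of transcripts or proteins, so only its changes over time are compared. The ratio was 8.55, 9.76 and 6.54 at 6 h in replicates A, B and C, then 9.33, 16.2 and 16.5 at 12 h, 10.6, 10.8 and 19.1 at 18 h, and 16.3, 15.4 and 11.1 at 24 h. All 3 libraries of 6 h lay below all those of 18 h and of 24 h, while replicate A of 12 h fell among the 6 h values. How many other pairs of genes separate in this way was not computed. Hr51 alone separated 24 h from 6 h, as did 7.52% of all genes tested in its direction. The mean log2 ratio was 3.03 ± 0.29 for 6 h, 3.76 ± 0.47 for 12 h, 3.70 ± 0.48 for 18 h and 3.82 ± 0.30 for 24 h (SD, n = 3 each).

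The log2 ratio was 0.78 higher at 24 h than at 6 h, a factor of 1.72, and 0.67 higher at 18 h than at 6 h, each with p = 0.1 in a two-sided exact permutation test, the smallest that 3 libraries against 3 can give. At 12 h it was 0.73 higher than at 6 h (exact permutation p = 0.2). In the 12 libraries the later times differed from each other by 0.11 or less in size. Over the 4 times the exact permutation test of F gave p = 0.136 (adjusted over 3 measures p = 0.204), and p = 0.117 for the 10 libraries. In those, the log2 ratio at 12 h was 4.02 and 4.04, against 3.29 and 2.71 at 6 h, a difference of 1.03 (exact permutation p = 0.333, the smallest possible with 2 libraries each). The log2 ratio was then 0.33 below that of 12 h at 18 h and 0.21 below it at 24 h (exact permutation p = 0.4 and p = 0.6).

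**Figure D3:**
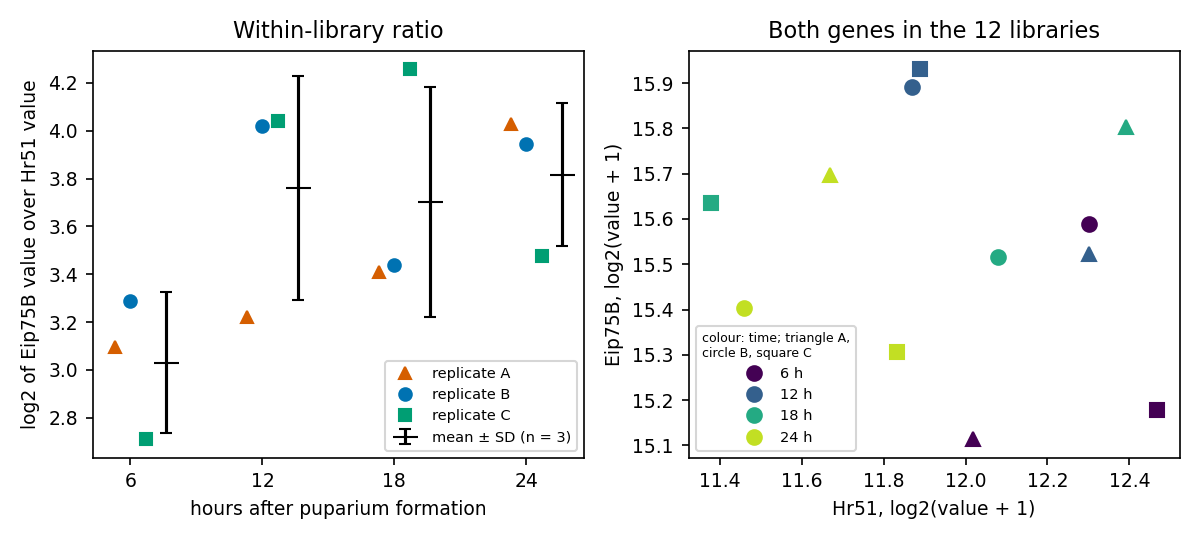
Left, the log2 ratio of Eip75B to Hr51 in each library by hours after puparium formation, with the mean ± SD of 3 libraries in black. Right, log2(value + 1) of Eip75B against that of Hr51 in the 12 libraries, coloured by time, with the replicate shown by the shape. The ratio is 2.71 to 3.29 at 6 h and 3.41 or higher in all 18 h and 24 h libraries, and the points on the right form no line.

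No relation between the levels of the 2 genes was detectable across libraries. Pearson's r of their log2 values was −0.14 (permutation p = 0.648) and Spearman's rho −0.15 (permutation p = 0.65) over 12 libraries. Without replicate C of 6 h and of 18 h, the libraries farthest from the median of Hr51, r was 0.12, in the 10 libraries it was −0.12, and over replicates B and C alone −0.26. For deviations from the mean of each time r was −0.06. Benjamini-Hochberg adjustment over the 6 relations computed gave a permutation p of 0.866 for each r and 0.973 for each rho.

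Patterns most like each gene were sought by Pearson's r over the 12 libraries, among 4711 genes tested with a mean value of at least 200. These are descriptions with no p, since all genes share the libraries and their depth, and the highest of so many correlations over 12 points will be high. Hr51 was most like CngB (r = 0.95), a gene named for a cyclic-nucleotide-gated channel subunit, then CG34001 (0.93), the DNA helicase gene hay (0.93), the synaptotagmin-like gene btsz (0.91), the Hippo pathway gene mats (0.90) and the dipeptidase gene Dip-B (0.89). CG34001 and hay had close values in every library, with 255 for both in replicate A of 24 h, so they may not be separate neighbours. Whether they share reads was not tested. CngB averaged 1255, 815, 965 and 615 at 6, 12, 18 and 24 h. The pattern most opposite to Hr51 was that of Mapmodulin (r = −0.98), with means of 2810, 3454, 3691 and 4357 at the 4 times, followed by CG15431 and Sema-2a, a secreted semaphorin (both −0.91).

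Eip75B had weaker neighbours. The 6 genes most like it were the condensin gene Cap-G (r = 0.84), CG17684 (0.81), the RNA-editing enzyme gene Adar (0.80), CG11873 (0.79), CG13001 and CG31510 (both 0.78). The most opposite were bnb (r = −0.84), the transcription elongation kinase gene Cdk9 (−0.82) and the small heat shock protein gene Hsp26 (−0.80). Adar averaged 748, 1173, 1011 and 1086 at 6, 12, 18 and 24 h. Without replicate A of 6 h and 12 h, r was 0.94 between Hr51 and CngB and −0.99 between Hr51 and Mapmodulin, and 0.79 between Eip75B and Cap-G.

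**Figure D4:**
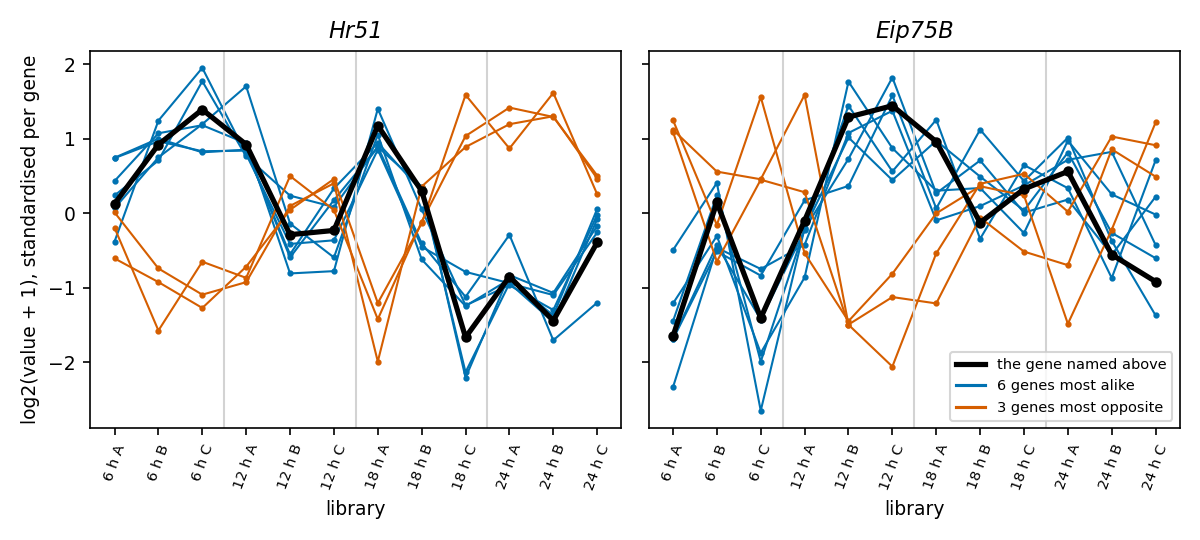
Log2(value + 1) of Hr51 (left) and Eip75B (right) in black, with the 6 genes most alike in blue and the 3 most opposite in orange, each standardised over the 12 libraries. Lines join libraries only to make each gene easy to follow, since replicates have no order. As in Hr51, the 18 h A point lies above the mean and the 18 h C point below it in the 6 genes most alike. The reverse holds in the 3 most opposite. Genes were picked for their r with Hr51 or Eip75B, so such likeness follows from the choice.

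Among the 21 nuclear receptor genes of the table, 13 passed the filter on low values and the other 8 were at or near 0. Hr83, svp and eg had no read in any library, dsf had 1, tll 4, kni 6 and knrl 7 reads over all libraries, and Hnf4 had 28 reads, all in replicate C of 18 h. In the 12 libraries limma called 0 of the 13 in every comparison. The median log2 change of the 13 at 24 h against 6 h was 0.18, beside −0.0029 over all genes tested. The highest library of Hr39 was 2.04 times its lowest and that of usp 2.14 times, close to the 2.13 times of Hr51 and the 1.76 times of Eip75B. Hr4, an ecdysone-induced receptor, ran from 418 to 11933, and Hr3, listed in the table as Hr46 and a binding partner of E75, from 34.7 to 2561. The range of Hr51 was ordinary for its level, since 45.3% of the 695 genes of like mean had a narrower one.

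Replicate A of 6 h and of 12 h stood away from the other libraries of their time in Hr4, Hr46 and EcR more than in Hr51 and Eip75B. In usp, replicate A of 6 h lay between B and C, and in Hr39 replicate A of 12 h did. Hr4 had 8176 in replicate A of 12 h where replicates B and C had 733 and 1635, and 1667 in replicate A of 6 h where B and C had 11933 and 10819. For Hr46 the 12 h values were 1619 in A, 425 in B and 189 in C, and the 6 h values 99.1 in A, 2540 in B and 2561 in C. EcR, the ecdysone receptor, had 1665 in A, 4464 in B and 4566 in C at 12 h, and 3558, 1431 and 1265 at 6 h. The part of these 2 libraries in the results for Hr51 and Eip75B is shown by the values with and without them above.

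In the 10 libraries, limma called 4 of the 13 receptors at 24 h against 6 h, 1 higher and 3 lower, beside 6.39% of all genes higher and 5.15% lower. EcR was higher (log2 change 1.68, adjusted p = 1.51e-05), and Hr46 (−3.34, adjusted p = 0.00147), Hr4 (−2.58, adjusted p = 0.00047) and Hr78 (−1.40, adjusted p = 0.027) were lower. The 2 left-out libraries stood apart in all 4 of these genes themselves. Hr78 had 409 in the left-out library of 6 h, where the kept ones had 1290 and 983. It had 1046 in that of 12 h, where the kept ones had 325 and 648. Calls of the 4 genes without the 2 libraries are thus a description and not a test. In the 12 libraries the limma adjusted p was 0.218 for EcR, 0.481 for Hr46, 0.378 for Hr4 and 0.408 for Hr78. At 12 h against 6 h EcR was higher, with 3.19% of all genes, and Hr46 and Hr4 lower, with 1.97%. EcR's partner usp, not called in either fit, averaged 1025 ± 77.8 at 24 h and 1622 ± 86.5 at 6 h in the 12 libraries (SD, n = 3 each), and ftz-f1, a receptor gene whose activation by Hr3 is opposed by E75, averaged 260 ± 210 at 24 h and 52.2 ± 52.6 at 6 h.

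**Figure D5:**
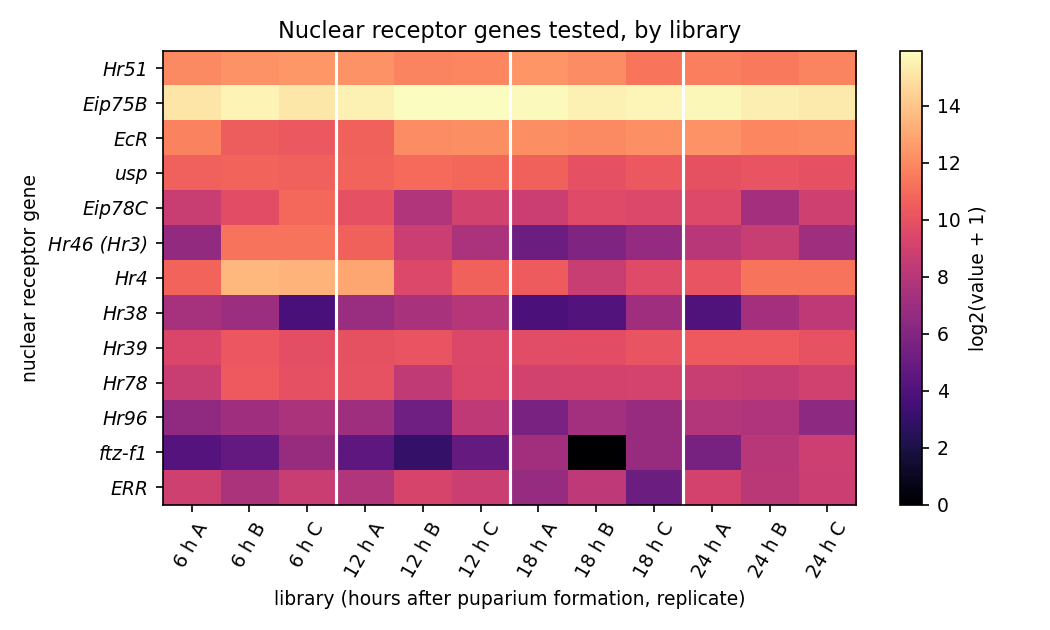
Log2(value + 1) of the 13 nuclear receptor genes that passed the filter, in each of the 12 libraries, with white lines between times. Hr51, Eip75B, usp and Hr39 keep nearly one shade across libraries, while Hr4 and Hr46 are bright in replicates B and C of 6 h and in replicate A of 12 h and darker in replicate A of 6 h.

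Eip75B belongs to the ecdysone response genes, of which 26 were listed and 23 tested. In the 12 libraries limma called 0 of them. In the 10 libraries at 24 h against 6 h, 3 were higher (EcR, Eip93F and Blimp-1) and 8 lower (Eip74EF, br, Hr46, Hr4, Sox14, Kr-h1, vri and Hr78), beside 6.39% of all genes higher and 5.15% lower, and Eip75B at 0.09 ± 0.18 was among the 12 not called. The median log2 change of the 23 was −1.27 in this fit, beside 0.06 over all genes, and −0.11 in the 12 libraries, beside −0.0029 over all genes. The 2 libraries were left out for values of genes of this list. The calls and the median of the list without them are thus a description and not a test. Eip74EF, which encodes E74 and is named like Eip75B for its induction by ecdysone, had 388, 478 and 832 at 24 h, against 2897 and 2661 in replicates B and C of 6 h and 207 in replicate A. Blimp-1, a repressor of ftz-f1 transcription, had 8502, 13350 and 11403 at 24 h, against 618 and 319 in replicates B and C of 6 h and 9657 in replicate A.

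Genes around the small molecules that E75 binds were listed as nitric oxide and cyclic GMP signalling (18 in the table, 9 tested) and as heme synthesis and breakdown (11 in the table, 10 tested). Limma called 0 of them in the 12 libraries. In the 10 libraries at 24 h against 6 h, 1 of the 9 signalling genes was higher and 3 were lower, beside 6.39% and 5.15% of all genes. The higher one was the cyclic nucleotide phosphodiesterase gene Pde11 (log2 change 2.17, adjusted p = 0.0319). The channel genes CngA (−5.28, adjusted p = 1.60e-06) and Cngl (−0.93, adjusted p = 0.0409) and the phosphodiesterase gene Pde9 (−3.19, adjusted p = 0.000197) were lower. CngA had 184, 304 and 76.3 at 24 h, against 6681 and 6060 in replicates B and C of 6 h and 482 in replicate A. The median of the 9 was −0.93 in the 10 libraries and −0.37 in the 12. CngB, the gene most like Hr51 over the libraries, was not called (−1.20, adjusted p = 0.074).

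No heme gene was called in either fit, and their median log2 change at 24 h against 6 h was −0.28 in the 10 libraries, beside 0.06 over all genes, and −0.47 in the 12 libraries. Alas, the first enzyme of heme synthesis, averaged 462 ± 122 at 24 h and 711 ± 164 at 6 h in the 12 libraries (SD, n = 3 each). Ho, the heme oxygenase that breaks heme down, averaged 199 ± 87.6 at 24 h and 393 ± 250 at 6 h. Its mean was highest at 12 h, 837 ± 16.9, and was 278 ± 303 at 18 h.

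For the TOR and insulin pathway, through which UNF acts on regrowth, 28 genes were listed in the table and 26 tested. Limma called 0 in the 12 libraries. In the 10 libraries 2 of the 26 were lower at 24 h against 6 h, a share near the 5.15% of all genes, and so no result about the pathway: S6k, the kinase that TOR activates (log2 change −1.003, adjusted p = 0.0124), and Pdk1, a kinase upstream of it (−1.15, adjusted p = 0.00125). S6k had 3985, 3259 and 3101 at 24 h, against 7699 and 6136 in replicates B and C of 6 h and 2873 in replicate A. The median of the 26 was −0.057, beside 0.06 over all genes, and −0.044 in the 12 libraries.

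Of the 25 listed cofactors of nuclear receptors 24 were tested, with 0 called in the 12 libraries. In the 10 libraries at 24 h against 6 h, 2 of the 24 were higher and 1 lower, shares near the 6.39% and 5.15% of all genes, and so no result about the list. The histone deacetylase gene HDAC1 (log2 change 1.19, adjusted p = 0.00165) and DOR (2.98, adjusted p = 0.0005), which encodes a coactivator of EcR, were higher in the limma test. Smr, the corepressor that binds E75 and EcR, was lower (−0.76, adjusted p = 0.00632), with 10548, 11369 and 10510 at 24 h, against 19839 and 16798 in replicates B and C of 6 h and 9132 in replicate A. The median of the 24 was 0.019, beside 0.06 over all genes, and 0.12 in the 12 libraries. All calls in these lists rest on the fit without the 2 libraries left out for their values, and in that fit, as in the one on 12 libraries, Hr51 and Eip75B were not called.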

How the data were processed

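RNA of sorted γ neurons was measured in 12 libraries (4 times, 3 replicates each) with MARS-seq, a 3′-end method, per the labels' protocols. Tools named in the submitters' processing notes are bcl2fastq, HISAT 0.1.5 and HOMER, without their roles. The sources used here do not give how molecular identifiers, strand and multiply mapped reads were treated. Recovered reads summed over genes exceeded the mapped reads in some libraries, as in replicate A of 6 h (2360787 against 2321534). Mapped reads are here 10000000 divided by the value of 1 read. Whether some reads counted for more than 1 gene was not tested. In others the sum was lower, as in replicate C of 6 h (1585661 against 1597241). The deposited table holds a signal per gene and library, which per the file headers is the number of reads per 10000000 mapped. All values (100%) were whole multiples of 1 read within 0.02 reads, so reads were recovered for edgeR 4.0.16 and DESeq2 1.42.0, tried as alternatives; edgeR called 0 genes in every comparison. The planned unit was a normalised value, and the tests were those planned for it.

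Testing took the 6969 genes that reached a value of 50 in 3 or more libraries. The model was limma 3.58.1 in R 4.3.3, on log2(value + 1), with a trend on intensity and 1 mean for each time. Changes on this scale understate those of low genes. Calls are at a Benjamini-Hochberg adjusted p under 0.05, over all genes tested. The labels do not say that replicates came from separate dissections, so p-values measure the spread between these libraries, which may be technical. No libraries of the same time were duplicates, since the chi-square per degree of freedom between them was at least 15.9. It was 45.9 and 40.7 for replicate A of 12 h against B and C of 12 h, beside 16.2 for B against C. For replicate A of 6 h against B and C of 6 h it was 110 and 74.2, beside 19.4 for B against C. Libraries of different times were not compared in this way. Ratios and correlations were tested by permutation, exact or with 100000 resamples. The tests were checked on simulated counts with 1 spread for all genes and libraries and with changes larger than those of Hr51 and Eip75B. That check does not bear on finding changes as small as theirs, or on libraries that stand apart.

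Hr51 and Eip75B were always named, with all nuclear receptor genes. Of the other lists, called members and up to 4 more with the smallest p for any change could be named, and for likeness the 6 genes most alike and 3 most opposite. Of 194 symbols listed, 190 were matched to the table. The members and lists were chosen with earlier results of these data known. Alternatives were a pseudocount of 10, no filter, median-ratio scaling, the replicate block, the other tools, subsets of libraries and leaving out each library.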

Additional observations from a re-analysis of the deposited data

How the results depend on the processing

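Neither Hr51 nor Eip75B was called under any of the 20 alternatives (240 changes between times, lowest adjusted p = 0.0722, for Hr51 at 24 h against 6 h in the 10 libraries), and over these the log2 change of Hr51 at 24 h against 6 h ran from −0.74 to −0.51 and that of Eip75B at 12 h against 6 h from 0.40 to 0.64. With 1 library left out, Hr51 ran from −0.38 to −0.14 at 12 h against 6 h, −0.58 to −0.075 at 24 h against 18 h and −0.53 to −0.027 at 18 h against 6 h, and Eip75B from 0.062 to 0.32 at 24 h against 6 h. Directions that turned were small. The change of Hr51 at 18 h against 12 h was 0.070 in the 10 libraries and −0.29 to 0.22 with 1 library left out in turn. Leaving out replicate A of 12 h gave 0.070, and leaving out replicate C of 18 h gave 0.22. The change of Eip75B at 24 h against 6 h was −0.028 in replicates B and C. The correlation of the genes was −0.29 to 0.061 with 1 library left out, the highest without replicate C of 6 h. The cause of these was not tested.

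Counts over all genes depended on libraries and tool. DESeq2 called 3 genes at 12 h against 6 h, 5 at 18 h against 12 h, 22 at 24 h against 18 h, 34 at 18 h against 6 h, 31 at 24 h against 12 h, 171 at 24 h against 6 h and 119 for any change. Replicates B and C gave 390, 25, 9, 728, 61, 702 and 658 in that order. The 10 libraries gave 359 at 12 h against 6 h, 10 at 24 h against 18 h, 696 at 18 h against 6 h, 1 at 24 h against 12 h, 804 at 24 h against 6 h and 649 for any change. Median-ratio scaling gave 4 at 24 h against 18 h. With 1 library left out the counts were 0 to 60, 0 to 1, 0 to 4, 0 to 569, 0 to 88, 0 to 676 and 0 to 506 in the first order, the highest without replicate A of 6 h, except at 18 h against 12 h (without replicate B of 12 h). The median of all genes at 24 h against 18 h was −0.11 and at 18 h against 6 h 0.11, and 0.01 and 0.00 after median-ratio scaling.

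With the replicate block no call changed: Hr51 at 24 h against 6 h was −0.61 (limma adjusted p = 0.411) and Eip75B at 12 h against 6 h 0.49. Same-letter libraries did not deviate together (r from −0.34 to 0.07 over 18 pairs), so the letters were not taken as pairs. The lowest of these r was between replicate A of 6 h and replicate A of 12 h. Replicate A of 12 h had an r of deviations of 0.20 and 0.22 with replicates B and C of 6 h. Under the block the ratio was tested over 576 permutations within letters (exact permutation p = 0.212).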
